A study of Mus musculus with 6 samples.

Results

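The 10 aquaporin genes Aqp1, Aqp2, Aqp3, Aqp4, Aqp5, Aqp6, Aqp7, Aqp8, Aqp9 and Aqp11 were compared between Dicer mutant and control ureteric bud cells of the embryonic mouse kidney. They were chosen by gene family, and all 10 were found among the 19296 genes measured, each with 1 probe set of its own on the Affymetrix whole-transcript array. RNA came from YFP-positive ureteric bud cells sorted from trypsin-treated kidneys at E15.5, when the bud branches, with 3 control arrays and 3 mutant arrays. Mutant cells carried Dicerc/-; Hoxb7Cre; Rosa26YFP: a conditional and a null Dicer allele, a Cre transgene driven by the ureteric bud promoter of Hoxb7, and a YFP reporter that Cre switches on. Control cells are labelled wild type, although they were sorted on YFP too, so whether they carried Hoxb7Cre and Rosa26YFP is not stated. The effect of Cre, or of the null allele in cells outside the bud, therefore cannot be told apart from that of losing Dicer in the bud. Both groups had a mixed strain background, and the labels call the replicates biological without saying if 1 embryo or several were used for an array, so the p-values measure only the spread between these samples.

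Aquaporins are membrane channels that let water follow an osmotic gradient, and the aquaglyceroporins among them also pass glycerol. In the adult collecting duct, which arises from the ureteric bud, water enters principal cells through Aqp2 at the apical membrane when vasopressin raises cAMP, and leaves through Aqp3 and Aqp4 at the basolateral membrane. Dicer makes mature miRNAs from hairpin precursors, and its loss in the bud is known to affect branching.

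Values are log2 expression values per array, and a change is the mutant mean minus the control mean on that scale. A gene was called changed where limma's adjusted p, corrected over all genes, was under 0.05. Array medians ran from 7.47 to 7.54. The targeted gene Dicer1 was lower on all 3 mutant arrays, with a change of -0.59 and a standard error of 0.06 (limma, adjusted p = 0.0005). The bud markers Hoxb7, Ret, Gata3, Calb1, Cdh16 and Cdh1 had control means of 10.98 to 13.02, far above 7.51, the median over every probe set, which is used below to divide bright from dim genes. Of 14 bud and collecting duct markers, 14 were bright, 8 fell and 1, Wnt9b, rose 2.67-fold. The dimmest of the 14, Wnt7b, had a control mean of 8.35. Among all bright genes 20.3% fell and 19.3% rose, and among all dim genes 7.58% fell and 4.34% rose. Of 66 measured markers of 9 other cell types, 8 were bright, 5 rose and 6 fell. These markers covered the proximal tubule, loop of Henle and distal tubule, intercalated cells, endothelium, erythroid cells, immune cells, stroma, cap mesenchyme and podocytes. In the cap mesenchyme list, the nephron progenitor factor Six2 rose 9.78-fold, from 7.05 ± 0.21 to 10.34 ± 0.06 (SD, n = 3 each), Tmem100 rose 1.77-fold and Osr1 fell. Of the 8 genes of this list, 5 did not pass, and the median change was -0.06. The summed signal of the list on the linear scale was 1236 to 1250 in control arrays and 2328 to 2484 in mutant arrays. This rise came mainly from Six2. The part of the list in the aquaporin values was not tested.

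Of the aquaporins, 2 fell in the mutant cells, 0 rose and 8 did not pass the test. The 2 were Aqp3 and Aqp4, the basolateral water exits of the principal cell. Over all genes 25.8% passed in either direction, 13.9% lower and 11.8% higher. By the mean over the 6 arrays, only Aqp11 was bright. Among the 9619 dim genes, where the other 9 aquaporins lie, 11.9% passed, 7.58% lower and 4.34% higher. Among the bright genes 39.6% passed, 20.3% lower and 19.3% higher. Aqp3 and Aqp4 are thus 2 of the 9 dim aquaporins. The fitted change was below 0 for 9 aquaporins and above 0 for Aqp7. The median over the aquaporins was -0.19, against -0.05 over all genes and -0.07 over dim genes. Centring each array on the median of its dim genes turned Aqp8 and Aqp9 slightly above 0, as did quantile normalization. At an unadjusted p under 0.05 the count was 3, with Aqp1 added, but the share of all genes at that level was not counted. With the threshold on limma's adjusted p raised to 0.1, the count was also 3. At that threshold 6416 of all 19296 genes passed, so the added call of Aqp1 does not set the aquaporins apart from other genes. The 2 calls stood in 1 direction, but the balance of calls over all genes depends on the scaling. It was 2285 higher and 2690 lower as deposited, and 2742 higher and 1456 lower when arrays were centred on their dim genes.

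**Figure D1:**
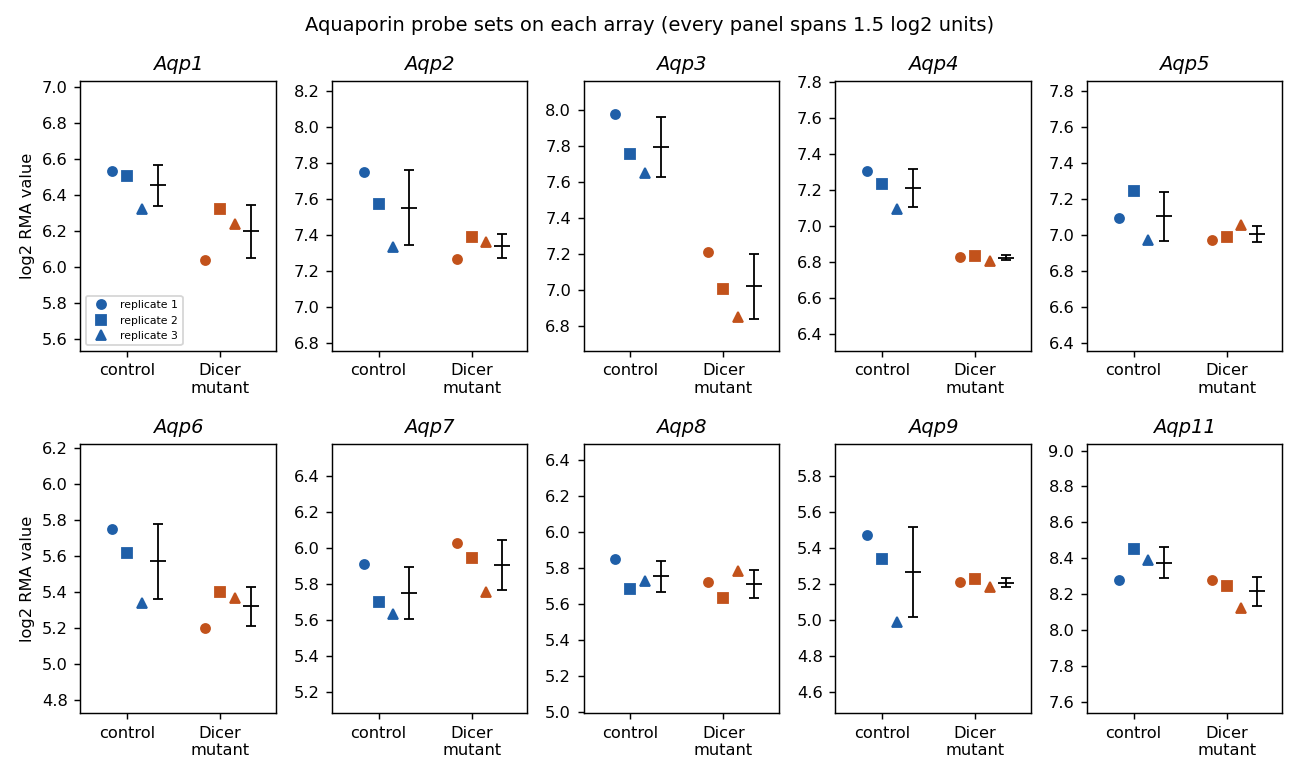
Log2 expression value (y axis) of each aquaporin on each array, with control arrays in blue and Dicer mutant arrays in orange, a symbol shape for each replicate number, and black bars for the mean ± SD of 3 arrays. The groups are separate for Aqp3 and Aqp4, barely separate for Aqp11, and overlap for the other 7.

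**Figure D2:**
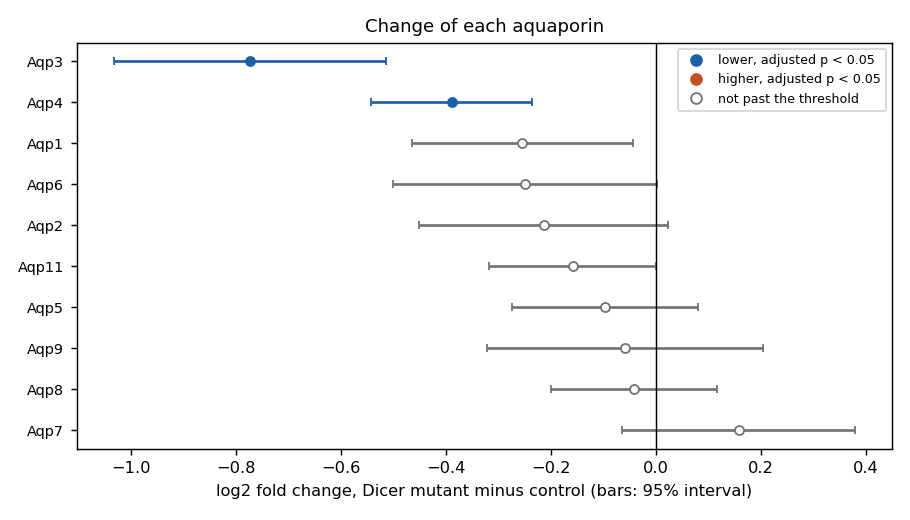
Change of each aquaporin in Dicer mutant against control cells (x axis, log2), ordered by size, with 95% intervals from limma, filled points for genes past an adjusted p of 0.05 and open points for the others. Aqp3 and Aqp4 are the only filled points, and the interval of Aqp1 excludes 0 before adjustment.

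Aqp3, an aquaglyceroporin that passes water and glycerol through the basolateral membrane of principal cells, had the largest change of the 10. Its control values were 7.98, 7.76 and 7.65, and its mutant values were 7.21, 7.01 and 6.85. Every mutant array lay below every control array, with a gap of 0.44 between the nearest values, wider than the range within either group (0.33 and 0.36). The means were 7.80 ± 0.17 and 7.02 ± 0.18 (SD, n = 3 each), a change of -0.77 with a standard error of 0.11 (limma, adjusted p = 0.00193). The mutant signal was therefore 58.5% of the control signal, with a 95% interval of 48.9% to 70.0%. The two-sided exact permutation test of the 6 values gave p = 0.1, the smallest that 3 against 3 arrays allow. Aqp3 passed under each of 15 alternative settings, with changes from -0.87 to -0.68. One setting required a control or mutant mean over 7.51, and Aqp3 met that through its control mean alone, so that setting lends no support. In bulk samples such as these, fewer cells of a type and less RNA per cell cannot be told apart.

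Aqp4, the other basolateral water channel of principal cells, and the main water channel of brain astrocytes, fell by less. Its control values were 7.30, 7.23 and 7.09, and its mutant values were 6.83, 6.83 and 6.80. The mutant arrays lay within 0.03 of each other and all below the lowest control array, by at least 0.26. The change was -0.39 with a standard error of 0.07 (limma, adjusted p = 0.00398), a mutant signal of 76.4% of control with a 95% interval of 68.7% to 84.9%. The exact permutation test again gave p = 0.1, the smallest possible. The mean of Aqp4 was under 7.51 in each group, so it was not tested where genes had to exceed that in at least 1 group. It passed under the other 14 settings, with changes from -0.45 to -0.31.

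Aqp2, the vasopressin-regulated apical channel of the principal cell, did not pass the test. Its control values were 7.75, 7.58 and 7.33, and its mutant values were 7.27, 7.39 and 7.36. Control replicate 3 lay below 2 of the 3 mutant arrays, so the groups overlapped. The means were 7.55 ± 0.21 and 7.34 ± 0.07 (SD, n = 3 each), a change of -0.21 with a 95% interval of -0.45 to 0.02 (limma, adjusted p = 0.174). This interval leaves room for a mutant signal between 73.2% and 101.7% of control. Without control replicate 3 the change was -0.32 and passed (limma, adjusted p = 0.0220). That array held the lowest control value, so leaving it out had to enlarge the fall. With any other single array left out Aqp2 did not pass (limma, adjusted p from 0.233 to 0.423).

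The promoters of Aqp2 and Aqp3 are shown because both channels serve the principal cell and only Aqp3 passed the test. RefSeq windows were found for 9 of the 10 genes, and Aqp4 was not matched. Each sequence is the 250 bases before the annotated start, in the direction of transcription (GRCm38.p6). The Aqp2 window is chr15:99578806-99579055 on the plus strand and the Aqp3 window is chr4:41098184-41098433 on the minus strand. Capitals mark matches on either strand to the 5 motifs searched, which are the full cAMP response element TGACGTCA, its half-site TGACG, the GATA core AGATAA, the ETS core AGGAAG and the TATA box TATAAA. The half-site lies within the full element.
Aqp2: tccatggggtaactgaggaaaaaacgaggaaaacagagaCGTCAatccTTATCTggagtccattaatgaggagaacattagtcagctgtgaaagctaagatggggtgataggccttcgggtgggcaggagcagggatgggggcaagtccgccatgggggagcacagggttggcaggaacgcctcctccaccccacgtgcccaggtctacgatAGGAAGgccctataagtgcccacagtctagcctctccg
Aqp3: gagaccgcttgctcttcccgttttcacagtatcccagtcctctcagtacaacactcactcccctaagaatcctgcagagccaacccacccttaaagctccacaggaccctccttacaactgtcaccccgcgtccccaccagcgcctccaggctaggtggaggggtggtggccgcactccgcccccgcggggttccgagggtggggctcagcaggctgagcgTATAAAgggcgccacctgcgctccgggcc

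The Aqp2 window held a cAMP response element half-site 211 to 207 bases before the start, a GATA core 202 to 197 bases before it and an ETS core 38 to 33 bases before it. In the Aqp3 window the only match was a TATA box 29 to 24 bases before the start. Of 32851 windows of the same length, 17.8% held the half-site, 9.99% the GATA core, 29.5% the ETS core, 12.4% the TATA box and 1.55% the full element. The full element was found in 0 of the 11 windows of the aquaporin genes. Among these windows the half-site was found for Aqp2 alone, the GATA core also in 1 of 2 windows of Aqp7, and the ETS core also for Aqp1 and Aqp8. A match describes letters in a window and not a bound site.

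The values of Aqp3 and the other members were set against each other within arrays. Aqp3 was made the reference after its change was seen to be the largest, so these differences are a description. The Aqp3 value minus the Aqp2 value was 0.24 ± 0.07 in control arrays and -0.32 ± 0.24 in mutant arrays (SD, n = 3 each). The groups did not overlap in this difference. For Aqp4 the Aqp3 difference went from 0.59 ± 0.08 to 0.20 ± 0.17, a shift of -0.39. Over all 9 pairs the shift ran from -0.93 (Aqp7) to -0.39 (Aqp4), and control and mutant arrays did not overlap in any. The two-sided exact permutation test gave p = 0.1 for each pair, the smallest possible, also after Benjamini-Hochberg adjustment over the 9 pairs, so none can pass 0.05 in this design.

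Aqp1, the constitutive water channel of the proximal tubule, the thin descending limb and many endothelia, was close to the threshold. Its control values were 6.53, 6.50 and 6.32, and its mutant values were 6.04, 6.32 and 6.24. Control replicate 3 and mutant replicate 2 met at the same rounded value, and the other arrays were separate. The change was -0.25 with a 95% interval of -0.46 to -0.04 (limma, adjusted p = 0.0778). It passed without control replicate 3 (change -0.32, limma adjusted p = 0.0394) and with array weights (change -0.30, limma adjusted p = 0.0425).

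Markers of cells that carry Aqp1 elsewhere in the kidney are given beside it. Among all dim genes 7.58% fell and 4.34% rose. Of 8 endothelial markers, 0 were bright and 1, Plvap, fell (change -0.42, limma adjusted p = 0.0197). The other 7 did not pass, and the median change of the 8 was -0.29, against -0.07 over all dim genes. Their summed signal on the linear scale was 747 to 1034 in control arrays and 659 to 845 in mutant arrays. Of 11 proximal tubule markers, 1 was bright, Lrp2, the endocytic receptor megalin, which rose 2.07-fold. Slc34a1, the phosphate transporter, and the transcription factor Hnf4a fell, and 8 markers did not pass. The median change of the 11 was -0.16. Their summed signal, which includes the rise of Lrp2, was 1043 to 1311 in control arrays and 1229 to 1279 in mutant arrays. The part of these cell types in the Aqp1 value was not tested.

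Aqp11, an aquaporin of the endoplasmic reticulum whose loss in mice causes polycystic kidneys, was the only bright member. Its control values were 8.28, 8.45 and 8.39, and its mutant values were 8.28, 8.24 and 8.13. The groups were separated by 0.0025, far less than the range within either. The change was -0.16 with a 95% interval of -0.32 to 0.00095 (limma, adjusted p = 0.137). Groups that do not overlap were found for 3 aquaporins (Aqp3, Aqp4 and Aqp11) and for 42.5% of all genes.

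Aqp6, an anion-permeable aquaporin of intracellular vesicles in intercalated cells, had control values of 5.75, 5.62 and 5.34 and mutant values of 5.20, 5.40 and 5.36. As for Aqp2, control replicate 3 fell among the mutant arrays. The change was -0.25 with a 95% interval of -0.50 to 0.0018 (limma, adjusted p = 0.137), and without control replicate 3 it was -0.36 and passed (limma, adjusted p = 0.0189). Of 9 intercalated cell markers, 2 were bright and rose, the receptor Kit and the ammonia channel Rhcg (changes of 0.38 and 0.33). Among all bright genes 19.3% rose. The factor Foxi1 and the proton pump subunit Atp6v1b1, which define the cell type, had control means of 7.10 and 6.70 and did not pass.

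Aqp5, the apical channel of salivary and lung epithelia, had control values of 7.09, 7.24 and 6.97 and mutant values of 6.97, 6.99 and 7.06. The groups overlapped, and the change was -0.10 with a 95% interval of -0.27 to 0.08 (limma, adjusted p = 0.395). Without control replicate 2 it was -0.03. Aqp2, Aqp5 and Aqp6 follow one another on chromosome 15 in the RefSeq order of protein-coding genes. Their changes were -0.21, -0.10 and -0.25, and none passed.

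Aqp7, an aquaglyceroporin of fat cells and the straight proximal tubule, was the only member with a change above 0. Its control values were 5.91, 5.70 and 5.63, and its mutant values were 6.02, 5.94 and 5.75. The groups overlapped, and the change was 0.16 with a 95% interval of -0.06 to 0.38 (limma, adjusted p = 0.273). It ran from 0.10 to 0.24 with single arrays left out. Aqp7 and Aqp3 are neighbours on chromosome 4. The Aqp3 minus Aqp7 value was 2.05 ± 0.03 in control arrays and 1.12 ± 0.06 in mutant arrays (SD, n = 3 each).

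Aqp8, a channel of intestinal, hepatic and other epithelia that also passes ammonia and hydrogen peroxide, had control values of 5.85, 5.69 and 5.73 and mutant values of 5.72, 5.63 and 5.78. Aqp9, the glycerol channel of hepatocytes, had control values of 5.47, 5.34 and 4.99 and mutant values of 5.21, 5.23 and 5.18. Both overlapped, with all mutant arrays of Aqp9 inside the control range. The changes were -0.04 with a 95% interval of -0.20 to 0.12 for Aqp8 and -0.06 with an interval of -0.32 to 0.20 for Aqp9 (limma, adjusted p = 0.693 and 0.743). Of the other aquaporin family genes with a probe set, Mip, the lens water channel, had a change of -0.0024 and Aqp12 one of -0.15, and neither passed (limma, adjusted p = 0.989 and 0.455).

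The spread of the aquaporins within the control group had a common order. Control replicate 1 was the highest control array for 8 of the 10 and control replicate 3 the lowest for 8, with both true of 7. Among all dim genes, these shares were 51.8%, 56.6% and 35.0%. The median of those dim genes was 5.86, 5.82 and 5.71 on the 3 control arrays and 5.70, 5.70 and 5.77 on the mutant arrays. The SD was larger between control arrays than between mutant arrays for 8 of the 10, against 60.7% of the dim genes. With arrays centred on their dim genes, an alternative chosen after the values were seen, Aqp3 and Aqp4 still passed with changes of -0.70 and -0.31. Leaving out control replicate 3 raised the number of aquaporins past the threshold to 5, all lower. In that fit 5130 of the 19296 genes passed, 2973 of them lower. Leaving out any other single array kept the number of aquaporins at 2, where 3460 to 4139 of all genes passed.

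**Figure D3:**
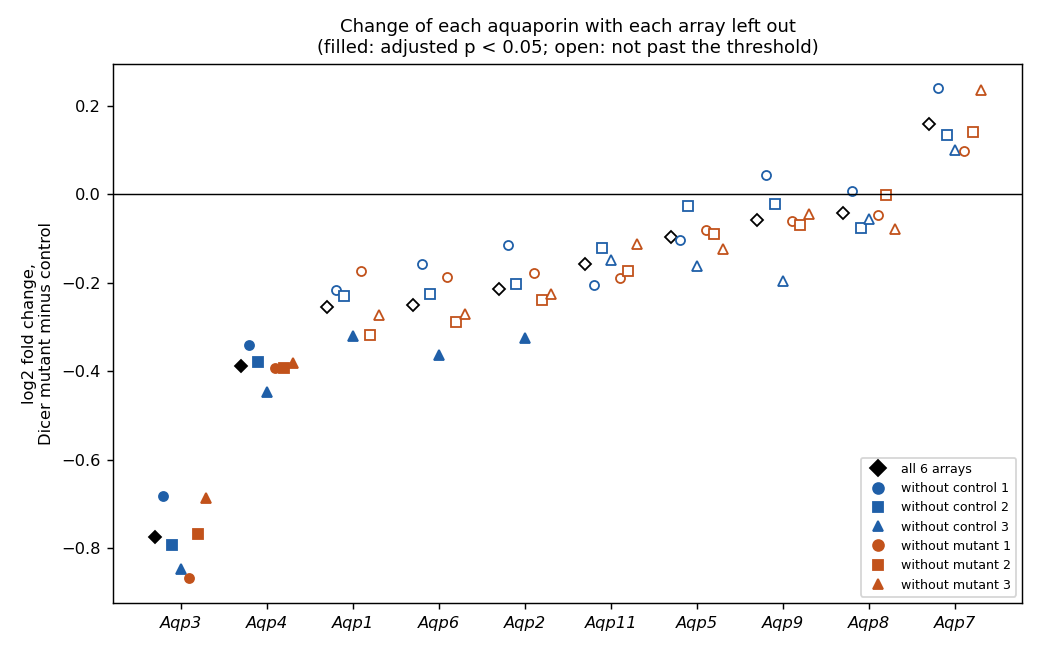
Change of each aquaporin (y axis, log2, Dicer mutant minus control) with all 6 arrays and with each array left out in turn; filled symbols mark an adjusted p under 0.05 in limma. Aqp3 and Aqp4 are filled throughout, and Aqp1, Aqp2 and Aqp6 are filled only without control replicate 3.

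Genes that act on Aqp2 upstream were read from the same fit. Counts for these and the following lists stand beside the 25.8% of all genes and 39.6% of bright genes that passed. Of 17 measured genes of vasopressin and cAMP signalling, 11 of them bright, 2 fell, 4 rose and 11 did not pass, with a median change of 0.01 against -0.05 over all genes. Avpr2, the V2 receptor through which vasopressin acts on principal cells, had a change of -1.23 with a standard error of 0.06 (limma, adjusted p = 2.56e-05). Its mutant signal was 42.5% of control. Ptger1, a prostaglandin E2 receptor, fell by 0.63 on the log2 scale. Adcy3, an adenylyl cyclase that makes cAMP, rose 1.88-fold, and Prkar2b, a regulatory subunit of protein kinase A, rose 1.48-fold. Adcy6, the main vasopressin-responsive cyclase of the collecting duct, had a change of -0.15 and did not pass (limma, adjusted p = 0.0815).

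Of 14 measured factors that act on Aqp2 transcription or on principal cell genes, 5 fell, 3 rose and 6 did not pass, with a median change of 0.04. Elf5, an ETS factor of principal cells, fell by 0.88 on the log2 scale. Nfatc1 fell by 0.56, and Gata3, a GATA factor of the bud, by 0.31, from a control mean of 12.44. Notch1, the receptor whose signalling favours principal over intercalated cells, rose by 0.41. Creb1 and Nfat5, through which cAMP and tonicity act, had changes of 0.08 and 0.04 and did not pass (limma, adjusted p = 0.308 and 0.697). Of the 14 genes, 12 were bright.

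**Figure D4:**
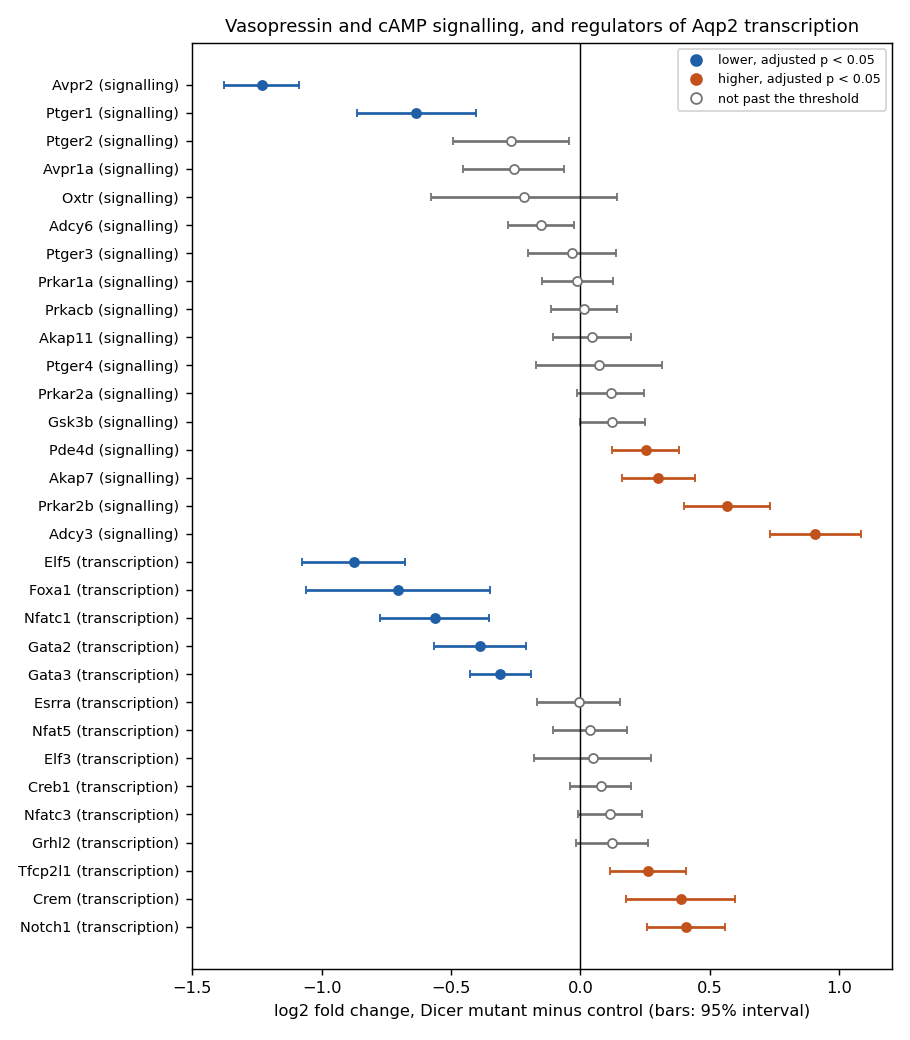
Change in Dicer mutant against control cells (x axis, log2, with 95% intervals from limma) for 17 genes of vasopressin and cAMP signalling and 14 regulators of Aqp2 transcription; blue points fell, orange points rose and open points did not pass. Avpr2 has the largest fall and Adcy3 the largest rise of the 31 genes.

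Aqp2 is moved to the membrane and back in vesicles. Of 24 measured genes, all of them bright, 3 fell, 3 rose and 18 did not pass, with a median change of 0.00. That is 6 of 24, where 39.6% of bright genes passed. The SNARE Vamp8 and the membrane-binding annexin Anxa2 fell by 0.56 and 0.64 on the log2 scale. Rab11a, a GTPase of recycling endosomes, rose by 0.25 and the membrane linker Ezr by 0.21. The number past the threshold was 2 without mutant replicate 1, and 3 without control replicate 1, mutant replicate 2 or mutant replicate 3.

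Of 9 measured genes of the complex that anchors Aqp4 at the membrane, 7 of them bright, 2 fell, 4 rose and 3 did not pass, with a median change of 0.13 (39.6% of bright genes passed). Sntb1, a syntrophin, fell by 0.93 on the log2 scale, from 9.28 ± 0.05 to 8.35 ± 0.12 (SD, n = 3 each). Dtna, a dystrobrevin, rose 1.70-fold, the sarcoglycan Sgcb 1.32-fold and utrophin, Utrn, 1.19-fold. Dag1, the dystroglycan core of the complex, had a change of -0.13 and did not pass (limma, adjusted p = 0.141).

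Of 12 measured genes that handle urea, glycerol and organic osmolytes, 8 of them bright, 5 fell, 3 rose and 4 did not pass, with a median change of -0.22 (39.6% of bright genes passed). Slc14a2, the vasopressin-regulated urea transporter of the inner medullary collecting duct, fell by 0.86 on the log2 scale, a 1.82-fold drop (limma, adjusted p = 0.000199). Mgll and Lipe, lipases that release glycerol, fell by 0.39 and 0.26. Slc38a2, an amino acid transporter that responds to tonicity, rose by 0.30.

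Markers of cell types that carry Aqp3 are given beside it. Of 9 principal cell markers other than aquaporins, 7 of them bright, 7 fell, 1 rose (Tfcp2l1) and 1 did not pass (Kcnj1), where 39.6% of bright genes passed and 20.3% fell, with Avpr2, Elf5 and Stc1 having the smallest p. Their summed linear signal was 9237 to 10365 in control arrays and 8130 to 8815 in mutant arrays. Of 8 urothelial markers, which matter here because urothelium also carries Aqp3, 7 were bright, 7 fell and 1 did not pass (Krt5, change -0.14). Upk1b, Trp63 and Upk3a had changes of -1.67, -0.44 and -1.31, and the list's summed signal was 2448 to 3453 in control arrays and 1238 to 1630 in mutant arrays. The lists share genes: Avpr2 is also on the signalling list, and Elf5, Tfcp2l1, Gata3 and Foxa1 are on the transcription list as well as on marker lists. The part of these cell types in the Aqp3 and Aqp4 values was not tested.

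The genes most like Aqp3 and Aqp4 were taken by Pearson's r over the 6 arrays, as a description, since any gene that differs between the groups shares that difference. For Aqp3 they were the olfactory receptor Olfr1212 (r = 0.998), the palmitoyltransferase Zdhhc7 (0.997) and Nr3c2, the mineralocorticoid receptor (0.997). Olfr1212 had means of 3.03 in control and 2.97 in mutant arrays, close to the lowest value on any array, 2.26. Its change was -0.06 and did not pass, whereas Zdhhc7 and Nr3c2 fell by 0.34 and 0.42 on the log2 scale. For Aqp4 they were Polr2m (0.998), 9430021M05Rik (0.998) and the gap junction gene Gjb1 (0.997). Polr2m had a change of -0.11 and did not pass, and the other two fell by 0.30 and 0.53.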

How the data were processed

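The deposited table holds log2 values that the authors made with RMA, with a row for each probe set. The submitters' processing notes name RMA and affy; versions, build and filters were not given in the sources used here. Because RMA gives all arrays a common distribution, it would remove a shift shared by most transcripts, and it compresses the changes of dim genes. Of 23309 probe sets, 20728 had 1 symbol in the platform annotation, 1174 several and 1407 none listed; the brightest per gene was kept, giving 19296 genes. There is no detection call, so "bright" and "dim" mean a 6-array mean above, or at or below, the overall median of 7.51. One model with genotype as its term was fitted to all genes (lmFit and eBayes in limma 3.58.1 under R 4.3.3; the prior had 3.93 degrees of freedom), with Benjamini-Hochberg adjustment and two-sided tests. The number of arrays limits the precision. No batch is given.

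For mutant against control, the fit was tested on simulated data with 19296 genes. Of 50 genes shifted by 0.5 (log2) it called 62%, of those shifted by 1 it called 94%, and of those shifted by 2 or 3 it called 100%. It made 8 false calls. The shifted genes were drawn from all genes, bright and dim, 50 for each size, and the noise was normal. In the data 25.8% of genes passed, so the simulated shares need not hold for the aquaporins.

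The members and the 6 pathway and 12 marker lists were chosen with earlier results of these data known. Of 188 listed genes, 170 were measured. Text names all members, Dicer1, the bud markers that check the sort, up to 4 called genes per pathway list by smallest p (otherwise 2), up to 3 markers per list, and the 3 genes most like each called member. Adcy6, Creb1, Nfat5, Dag1, Foxi1, Atp6v1b1, Tfcp2l1, Kcnj1, Krt5, Foxa1, Six2, Tmem100, Osr1, Wnt7b and Wnt9b were named after their values were seen. Same-numbered samples deviated apart (r = -0.189, -0.0955 and -0.219), so replicate numbers were not used as pairs. Promoter windows came from a RefSeq table (GRCm38.p6). Figures were drawn with matplotlib 3.10.9.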

Additional observations from a re-analysis of the deposited data

How the results depend on the processing

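Other settings were the replicate number as a block, single arrays omitted, arrays quantile-normalized or centred on their median, only genes with a mean above 7.51 in at least 1 group, array weights, robust eBayes with a trend, probe sets averaged or each tested, and thresholds of 0.01 and 0.1. Centring on dim genes was added after the data were seen. Aqp3, Aqp4 and Dicer1 kept their direction and call wherever they were tested. The filter on group means kept 9934 genes, of which 5263 passed. It kept 3 aquaporins (Aqp2, Aqp3 and Aqp11), of which 1 passed (Aqp3, lower). Aqp2 and Aqp3 were each kept through the control mean alone, and Aqp4 was not kept. With array weights 3 aquaporins passed, with Aqp1 at -0.30, and 5366 of the 19296 genes passed. Leaving out single arrays gave 2 to 5 aquaporins past the threshold, all lower, and 1764 to 2973 genes lower. It also gave changes of -0.32 to -0.17 for Aqp1, -0.32 to -0.11 for Aqp2, -0.16 to -0.03 for Aqp5, -0.36 to -0.16 for Aqp6, 0.10 to 0.24 for Aqp7, -0.077 to 0.0069 for Aqp8 and -0.20 to 0.044 for Aqp9. The last 2 turned sign without control replicate 1 (0.0069 and 0.044). They also turned with quantile normalization (0.026 and 0.0095) and with centring on dim genes (0.035 and 0.018), never past the threshold. Centring on dim genes gave 1456 genes lower. At an adjusted p of 0.01, 2790 genes passed, 1367 higher and 1423 lower. The vesicle traffic list had 2 to 7 genes past the threshold with single arrays left out and 2 with the replicate block. The replicate block gave 3603 genes in all and changed no call of an aquaporin. The labels do not say if the numbers pair the samples. Changes of dim genes are limited by their signal, which has no measured background here.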
